A study of Monascus purpureus with 6 samples.

Results

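In mycelia of the filamentous fungus Monascus purpureus, 32 genes stood at no more than 0.5 times their lowest control level in metal-ion replicates 1 and 3. They were selected on measured values, out of 9836 gene identifiers in the count table. The level in counts-per-million (CPM), scaled by each library's total, had to average at least 5 over the 6 libraries, and the higher of metal-ion replicates 1 and 3 could be at most 0.5 times the lowest of the 3 controls. Metal-ion replicate 2 played no part in the ratio. Of 9151 MAP00 locus tags, 6858 reached that level, and 35 of them lay in 2 stretches of tags that the selection leaves out. None of these 35 met the ratio. Of the 6823 genes that remained, 32 met it (0.469%). Since the control libraries and metal-ion replicates 1 and 3 chose the genes, their values are a description and carry no test. Only replicate 2 and the position of the genes bring something that the ratio did not use.

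The 3 metal-ion libraries came from wild-type strain MP2022 at day 1, under a condition called optimized metal ion, in which ZnSO4·2H2O stood at 0.0 g/L and MgSO4·2H2O at 2.5 g/L. The 3 control libraries came from mycelia of the same strain and day. They are described as untreated, beside amounts of 2.0 g/L for the zinc salt and 1.0 g/L for the magnesium salt, and whether the control medium held these amounts is not settled by that wording. RNA was sequenced in bulk, where fewer cells of a kind and less RNA per cell cannot be told apart, and separate cultures are not stated for the replicates. Any p-value therefore measures the spread between these libraries, which may be technical.

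Zinc is a cofactor of many fungal enzymes and holds together the zinc finger domains of transcription factors, while magnesium binds ATP and stabilises ribosomes. Filamentous fungi take up zinc through dedicated membrane transporters and store it in the vacuole. Genes of fungal secondary metabolism and of some breakdown pathways often lie next to each other in the genome and change together, which makes runs of neighbouring locus tags worth describing. Only 4 of the 32 genes carry a symbol in the annotation. MCCC2 is named for a subunit of methylcrotonyl-CoA carboxylase, a mitochondrial enzyme of leucine breakdown. FPR4 is named for a nuclear proline isomerase that acts as a histone chaperone in budding yeast. ASPERGILLOPEPSIN2 is named for a secreted acid peptidase of aspergilli, and ALV1 is given here by its symbol alone. The other 28 are named by locus tag, with no product given in the sources used here.

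Metal-ion libraries held 35357043, 38927910 and 35314601 counts in replicates 1, 2 and 3, and control libraries held 33638067, 36537672 and 33706761 counts. Metal-ion replicate 2 stood apart from the other libraries of its group: the chi-square per degree of freedom between gene counts was 118 against replicate 1 and 109.8 against replicate 3, but 36.7 between replicates 1 and 3 and 14.3 to 21.7 between controls. Scaling matters little for replicate 2, where the log2 fold change against control had a median over all genes of 0.02 on library totals and 0.00 with TMM, a scaling that discounts genes with extreme ratios. For all 3 metal-ion libraries it was 0.14 and 0.03, so falls measured on library totals, as in the ratio, are slightly smaller than falls relative to the typical gene. The smallest count behind any value of the 32 genes was 87, for MAP00_001351 in metal-ion replicate 3, or 2.46 CPM with a 95% Wilson interval of 2.00 to 3.04 CPM. Such intervals cover counting error only.

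The 32 genes together took 0.164, 0.285 and 0.149% of the counts in metal-ion replicates 1, 2 and 3, against 0.527, 0.544 and 0.475% in control replicates 1, 2 and 3. Their 95% Wilson intervals ran from 0.163 to 0.166% for metal-ion replicate 1, from 0.284 to 0.287% for replicate 2 and from 0.148 to 0.150% for replicate 3. In control they ran from 0.524 to 0.529%, from 0.542 to 0.547% and from 0.473 to 0.477%. Replicate 2 lay between the other metal-ion libraries and all controls. The genes covered a wide span of levels, with control means from 6.97 to 1528 CPM and a median of 39.4 CPM, against a median of 46.9 CPM over the 6823 genes. In the authors' FPKM, which scale a count by gene length and depth, control means ran from 3.80 to 775 FPKM with a median of 35.8 FPKM, against 25.4 FPKM over the 6823 genes. A symbol was attached to 4 of the 32 and to 848 of the 6823 (12.4%).

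Metal-ion replicate 2 was below the lowest control in 31 of the 32 genes, where 29.5% of the 6823 genes showed the same. It was at or below 0.5 times the lowest control in 9 of the 32, and in 0.205% of the 6823 genes (14 genes). In 30 of the 32 it stood above both other metal-ion replicates, and in MAP00_004109 and MAP00_008561 it stood below both. Over all 6823 genes replicate 2 was above both in 27.8%. The ratio picked genes for low values in replicates 1 and 3 alone, so a library left out of the selection is free to lie higher, and this excess cannot be told apart from the effect of that choice by these counts alone. The ratio of replicate 2 to the lowest control ran from 0.134 in MAP00_004109 to 1.04 in MAP00_000453, with a median of 0.598. Over the 6823 genes that median was 1.08.

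**Figure D1:**
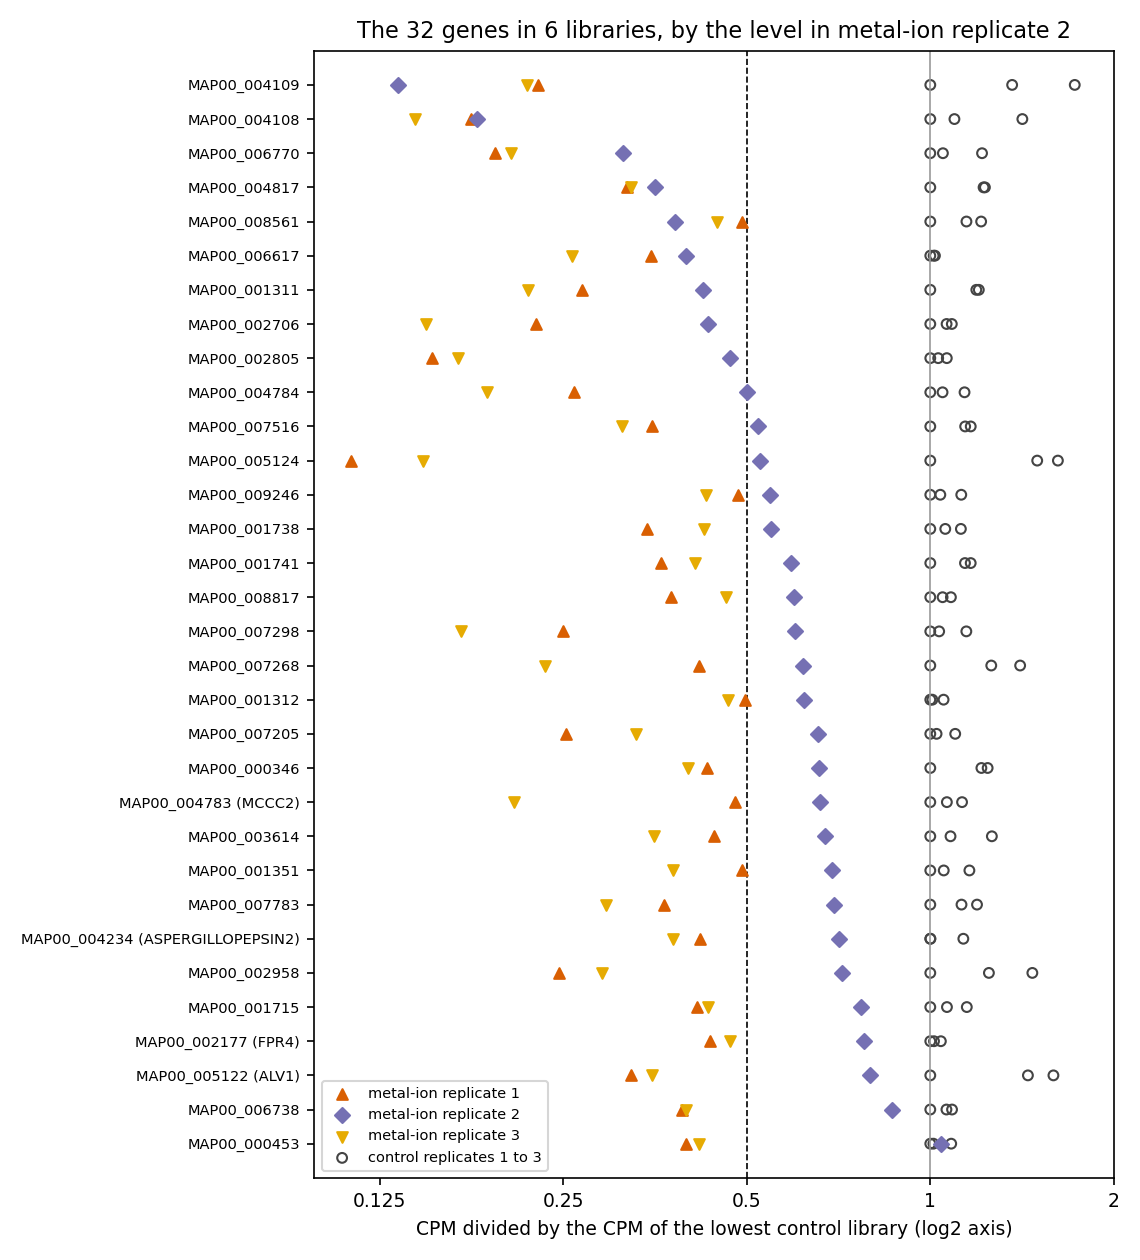
CPM of each of the 32 genes in 6 libraries, divided by the CPM of its lowest control library, on a log2 axis; triangles and diamonds are metal-ion libraries, open circles control libraries, and the dashed line marks the ratio of 0.5 used in the selection. Replicate 2 (diamonds) lies left of the lowest control in 31 genes and at or left of 0.5 in 9.

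Repeating the selection with another metal-ion library left out, an alternative chosen after seeing the data, gave shorter lists. On replicates 2 and 3 it found 10 genes, of which 9 were among the 32 (90% of the 10 and 28.1% of the 32). On replicates 1 and 2 it found 9 genes, all of them among the 32. The library left out was at or below 0.5 times the lowest control in 9 of the 10 and in 9 of the 9, against 9 of 32 when replicate 2 was left out. By construction these are the same 9 genes each time, so the comparison restates the lengths of the lists. The gene found only with replicates 2 and 3 was MAP00_006915, singled out after its values were seen, with ratios of 0.686, 0.458 and 0.446 in metal-ion replicates 1, 2 and 3. The same 9 genes were thus at or below 0.5 in all 3 metal-ion libraries, which 0.132% of the 6823 genes were. All 3 metal-ion libraries lay below every control in 31 of the 32 genes and in 13.0% of the 6823, a count that the selection largely fixes.

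To set replicate 2 against control with a test, edgeR's quasi-likelihood test was fitted to the 3 controls and replicate 2 alone, over 9231 genes and with Benjamini-Hochberg adjustment over all of them. The lone library is assumed to vary like the controls, and the controls are shared with the selection, so the test is independent of it on the metal-ion side only. Of the 32 genes 27 were called lower, at an adjusted p under 0.05, where 2.01% of all tested genes were called lower. At an unadjusted p under 0.05, 31 of the 32 were lower, and 8.56% of all tested genes were. Log2 fold changes of replicate 2 over control ran from -3.37 to -0.01 with a median of -0.88 (median over all tested genes 0.00). The 5 genes that were not called were ALV1, MAP00_001351, MAP00_001715, MAP00_006738 and MAP00_000453. In the fit of all 6 libraries 31 of the 32 were called lower (5.32% of 9048 tested genes were), and MAP00_000453 was not, but the selection used that contrast and nothing is read from the count. Leaving out control replicate 2 gave 19, and leaving out either control replicate 1 or metal-ion replicate 3 gave 20. Over all tested genes, 481 were called lower in that fit. Leaving out any 1 library other than metal-ion replicate 2 gave 94 to 139, and leaving out metal-ion replicate 2 gave 1509. Why the counts moved was not tested.

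**Figure D2:**
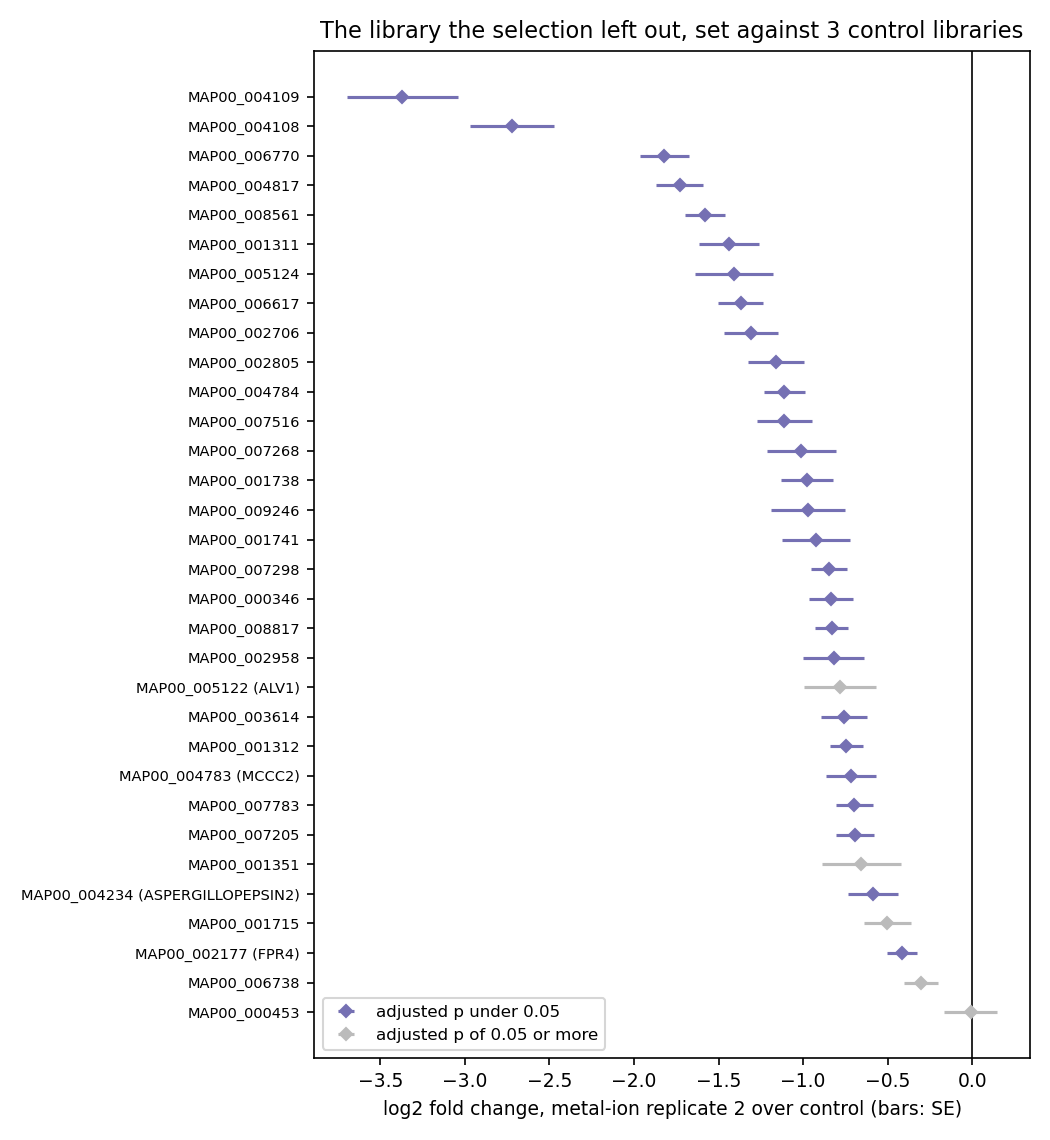
Log2 fold change of metal-ion replicate 2 over the 3 control libraries for the 32 genes, from edgeR, with the standard error as bars; coloured points passed at an adjusted p under 0.05 and grey points did not. The values run from -3.37 for MAP00_004109 to -0.01 for MAP00_000453.

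Among the 9 genes low in all 3 metal-ion libraries, the neighbours MAP00_004109 and MAP00_004108 had the lowest replicate 2 relative to control. The level of replicate 2 helped to pick these 9, so their values in replicate 2 are a description as well. MAP00_004109 had 4.02, 2.36 and 3.85 CPM in metal-ion replicates 1, 2 and 3, against 24.1, 17.7 and 30.5 CPM in control replicates 1, 2 and 3. The metal-ion libraries did not overlap the controls, and the 92 counts of replicate 2 allow 1.93 to 2.90 CPM (95% Wilson interval). MAP00_004108 had 3.39, 3.47 and 2.75 CPM in metal-ion libraries, against 21.0, 19.2 and 27.2 CPM in controls, given in order of replicate number here and from now on. Replicate 2 was as low as the others in this gene. The log2 fold change of replicate 2 over control was -3.37 ± 0.33 for MAP00_004109 and -2.72 ± 0.25 for MAP00_004108 (SE; edgeR adjusted p = 0.000148 and 9.34e-05).

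MAP00_006770 had 9.98, 16.2 and 10.6 CPM in metal-ion libraries, against 54.3, 51.7 and 62.9 CPM in controls, and its replicate 2 stood at a log2 fold change of -1.82 ± 0.14 (edgeR adjusted p = 3.46e-05). Its model overlaps that of MAP00_006771, which had 8.79 to 10.3 CPM in metal-ion libraries and 8.98 to 10.7 CPM in controls. Without strand information their shared reads cannot be told apart. MAP00_004817 had 106, 118 and 107 CPM in metal-ion libraries, against 407, 409 and 332 CPM in controls. The 3 metal-ion libraries were close to each other, and replicate 2 had a log2 fold change of -1.73 ± 0.14 (edgeR adjusted p = 3.68e-05). Per length, MAP00_004817 was the most abundant of the 32 in control, at 223 ± 12.2 FPKM in metal-ion and 775 ± 85.4 FPKM in control libraries (SD, n = 3 each).

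MAP00_008561 was the other gene in which replicate 2 was the lowest metal-ion library, with 155, 120 and 141 CPM in metal-ion libraries, against 383, 316 and 362 CPM in controls. Its replicate 2 had a log2 fold change of -1.58 ± 0.12 (edgeR adjusted p = 2.86e-05). MAP00_006617 had 10.5, 12.0 and 7.79 CPM in metal-ion libraries, against 30.2, 30.7 and 30.6 CPM in controls. The controls of this gene hardly differed, and its replicate 2 fell by 1.37 ± 0.13 on the log2 scale (edgeR adjusted p = 0.000160).

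The remaining 3 of the 9 had a replicate 2 that was further from replicates 1 and 3. MAP00_001311 had 5.35, 8.45 and 4.36 CPM in metal-ion libraries, against 23.7, 23.9 and 19.9 CPM in controls. MAP00_002706 had 4.58, 8.79 and 3.03 CPM, against 22.1, 20.3 and 21.6 CPM in controls. MAP00_002805 had 2.69, 8.30 and 2.97 CPM, against 18.8, 17.7 and 18.2 CPM in controls. Replicate 2 was above both other metal-ion libraries and below every control in all 3 genes. Its log2 fold changes were -1.44 ± 0.18, -1.31 ± 0.16 and -1.16 ± 0.17 (SE; edgeR adjusted p = 0.000799, 0.000739 and 0.00229).

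In 16 genes replicate 2 lay between 0.5 and 0.7 times the lowest control. MAP00_004784 sat at the boundary, with 15.0, 28.8 and 10.8 CPM in metal-ion libraries, against 57.6, 65.6 and 60.4 CPM in controls. Its ratio in replicate 2 was above the limit of 0.5 by less than the counting error: the 95% Wilson interval of replicate 2, 27.2 to 30.6 CPM, spans 0.5 times the lowest control. By the higher of replicates 1 and 3, MAP00_005124 had the lowest ratio of all 32. It had 12.6, 59.2 and 16.6 CPM in metal-ion libraries, against 169, 183 and 113 CPM in controls. Replicate 2 held several times the level of the other metal-ion libraries and was still below every control (log2 fold change -1.41 ± 0.23, edgeR adjusted p = 0.00512).

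Per length, MAP00_008817, MAP00_007783 and MAP00_007298 were the most abundant of these 16 in control. MAP00_008817 averaged 290.2 ± 66.5 FPKM in metal-ion and 632 ± 23.7 FPKM in control libraries (SD, n = 3 each). MAP00_007783 averaged 250.8 ± 118 FPKM in metal-ion and 614 ± 53.2 FPKM in control libraries, and MAP00_007298 averaged 118 ± 79.2 FPKM in metal-ion and 369 ± 26.6 FPKM in control libraries. The spread within the metal-ion group was wider than in control for all 3, and replicate 2 was the highest metal-ion library in each. MAP00_007783 had 505, 959 and 406 CPM in metal-ion libraries, against 1554, 1648 and 1381 CPM in controls. MAP00_007298 had 160, 384 and 109 CPM, against 663, 734 and 641 CPM in controls. Replicate 2 was over 1.5 times the other metal-ion libraries in both and below every control. MAP00_008817 had 117, 186 and 144 CPM, against 326, 336 and 311 CPM in controls, with the metal-ion libraries nearer to each other. The log2 fold changes of replicate 2 were -0.70 ± 0.11, -0.85 ± 0.11 and -0.83 ± 0.10 for MAP00_007783, MAP00_007298 and MAP00_008817 (SE; edgeR adjusted p = 0.00380, 0.000923 and 0.000556). The 16 were grouped by the level of replicate 2 itself, which largely fixes their calls in replicate 2, so these calls are a description. MAP00_001351, also among the 16, was the gene with the lowest control mean. It had 3.20, 4.50 and 2.46 CPM in metal-ion libraries, against 7.55, 6.51 and 6.85 CPM in controls (log2 fold change in replicate 2 -0.66 ± 0.23, not called).

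Replicate 2 was above 0.7 times the lowest control in the last 7 genes, among them 3 of the 4 with a symbol. FPR4 (MAP00_002177) had 127, 226 and 136 CPM in metal-ion libraries, against 295, 303 and 291 CPM in controls. Its replicate 2 was well above the other metal-ion libraries, and was called lower than control (log2 fold change -0.42 ± 0.09, edgeR adjusted p = 0.0238). Per length, FPR4 was among the 5 most abundant of the 32 in control, at 85.1 ± 28.3 FPKM in metal-ion and 154 ± 3.13 FPKM in control libraries (SD, n = 3 each). ASPERGILLOPEPSIN2 (MAP00_004234) had 9.98, 16.9 and 9.03 CPM in metal-ion libraries, against 23.8, 27.0 and 23.9 CPM in controls. It fell in replicate 2 by 0.59 ± 0.15 on the log2 scale (SE). It was called lower, but that call was lost without control replicate 2 or 3, on library totals alone and without the low-count filter. In the fit with all 6 libraries sharing 1 estimate of the spread, FPR4 and ASPERGILLOPEPSIN2 both stood at an adjusted p of 0.0740 for replicate 2.

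MAP00_006738 and MAP00_000453 were the genes in which replicate 2 was nearest to control. MAP00_006738 had 23.0, 50.8 and 23.3 CPM in metal-ion libraries, against 63.7, 62.4 and 58.7 CPM in controls. MAP00_000453 had 6.05, 15.9 and 6.37 CPM, against 15.4, 16.5 and 15.2 CPM in controls, so its replicate 2 lay within the control range. Neither was called in replicate 2, at log2 fold changes of -0.30 ± 0.10 and -0.01 ± 0.16 (SE; edgeR adjusted p = 0.132 and 0.986). The model of MAP00_000453 shares 691 bases with that of MAP00_000452, which had 82.3, 91.4 and 80.9 CPM in metal-ion libraries and 97.4, 102 and 99.2 CPM in controls, so its counts are uncertain. MAP00_001715 had 10.8, 20.1 and 11.3 CPM in metal-ion libraries, against 26.1, 30.0 and 27.8 CPM in controls (log2 fold change in replicate 2 -0.50 ± 0.14, edgeR adjusted p = 0.0698), and was called without control replicate 1 (adjusted p = 0.0415; 0.0415 to 0.143 over its alternatives). MAP00_002958 had 38.0, 111 and 44.7 CPM in metal-ion libraries, against 193, 228 and 155 CPM in controls.

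The position of replicate 2 on the way from the control mean, set at 0%, to the mean of metal-ion replicates 1 and 3, set at 100%, had a median of 67.2% over the 32 genes, with quartiles of 54.1 and 76.8%. It was lowest in MAP00_000453, at -1.83%, and highest in MAP00_008561, at 114%. For comparison, 122 genes of the same minimum level stood at 2 times their highest control or more in metal-ion replicates 1 and 3. In those, the median position was 77.2%, with quartiles of 50.1 and 98.4%. Replicate 2 was past 2-fold as well in 80 of the 122 (65.6%), against 9 of the 32 (28.1%), and reached at least the nearer of replicates 1 and 3 in 40 of the 122 (32.8%), against 2 of the 32 (6.25%). The 2 sets share all 6 libraries and the difference between them was not tested.

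**Figure D3:**
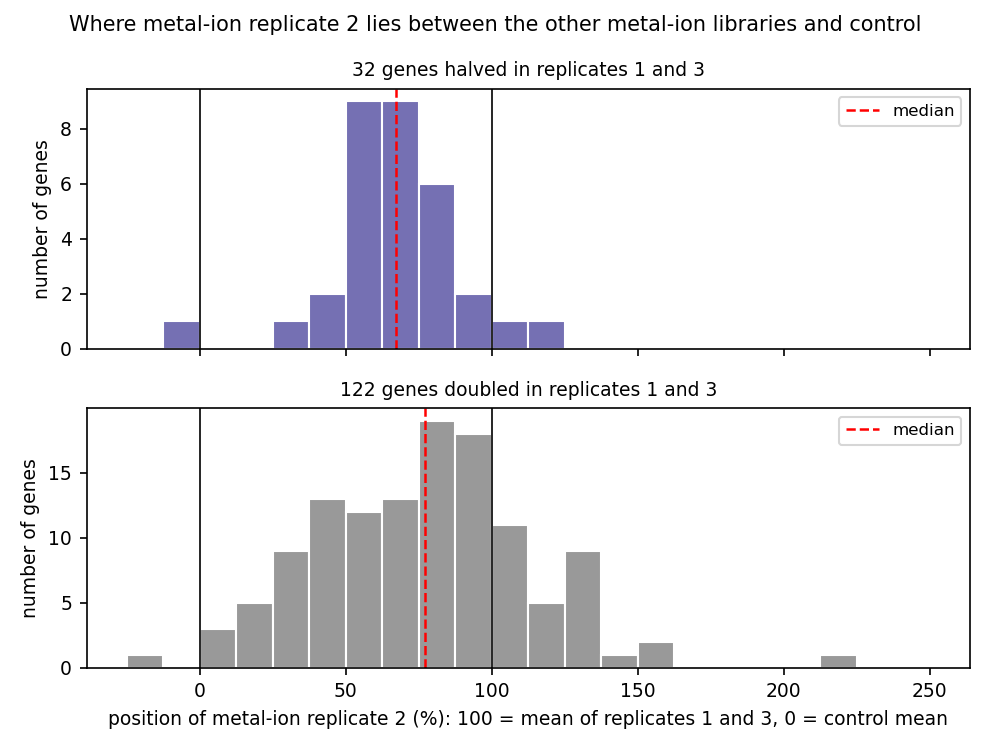
Number of genes by the position of metal-ion replicate 2, in percent of the distance from the control mean (0) to the mean of metal-ion replicates 1 and 3 (100), for the 32 genes (top) and for 122 genes at 2 times the highest control or more (bottom); dashed lines mark the medians of 67.2 and 77.2%. The quartiles are 54.1 and 76.8% for the 32 genes and 50.1 and 98.4% for the 122, whose values spread more widely.

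Replicates 1 and 3 themselves were close in most of the 32. Replicate 3 was lower than replicate 1 in 18 genes, and the ratio of replicate 3 to replicate 1 had a median of 0.933, against 0.942 over the 6823 genes. The extremes were MCCC2 at 0.435 and MAP00_005124 at 1.31. Among controls, the coefficient of variation had a median of 7.46% over the 32 and 6.496% over the 6823 genes, and ran from 0.903 to 26.6% within the 32. Control replicate 3 was the lowest control in 18 of the 32 genes, control replicate 2 in 9 and control replicate 1 in 5, against 35.9, 38.2 and 25.9% of the 6823 genes.

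By position, 6 of the 32 genes (18.8%) lay directly beside another of them, in 3 pairs. Of the eligible genes 0.469% were among the 32, which is a different measure from the share with such a neighbour. No run was longer than 2 tags. The pairs were MAP00_001311 with MAP00_001312, MAP00_004108 with MAP00_004109, and MCCC2 (MAP00_004783) with MAP00_004784. In the first pair the model of MAP00_001311 lies wholly inside that of MAP00_001312, so these are not separate genes side by side. With 1 tag allowed between, ALV1 (MAP00_005122) and MAP00_005124 formed another pair. Order comes from the annotation of assembly ASM2599979v1 of strain KUPM5. No source names the build used for counting, so no coordinates are given. How often chance would place so many of 32 genes side by side was not tested.

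The genes beside MAP00_004108 and MAP00_004109 were not called. MAP00_004107 had 46.3, 54.9 and 47.6 CPM in metal-ion libraries, against 59.5, 61.3 and 59.3 CPM in controls, which missed the threshold in the fit of all 6 libraries (-0.38 ± 0.12 on the log2 scale; edgeR adjusted p = 0.0577, and 0.00125 to 0.187 over its alternatives). On the other side, MAP00_004110 was near 2 CPM or below in every library, with a value of -0.24 ± 0.34 on the log2 scale (edgeR adjusted p = 0.681). The pair was thus flanked on both sides by genes with far smaller differences. In the other adjacent pair without a symbol, the model of MAP00_001311 lies wholly inside that of MAP00_001312, and their shared reads cannot be told apart. MAP00_001312 had 53.8, 67.0 and 50.4 CPM in metal-ion libraries, against 108, 114 and 109 CPM in controls, and of the 32 genes it was the closest to the limit, at a ratio of 0.497.

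MCCC2 had 10.3, 14.2 and 4.47 CPM in metal-ion libraries, against 24.3, 23.0 and 21.6 CPM in controls. Both MCCC2 and its neighbour MAP00_004784 were lowest in metal-ion replicate 3, higher in replicate 1, higher again in replicate 2 and highest in the controls. This order is not particular to the pair. Replicate 3 was below replicate 1 in 18 of the 32 genes, and replicate 2 was above both in 30. In replicate 2 alone, MCCC2 fell by 0.72 ± 0.15 on the log2 scale and MAP00_004784 by 1.11 ± 0.12 (SE; edgeR adjusted p = 0.0179 and 0.000340). With all 6 libraries sharing 1 estimate of the spread, MCCC2 was not called in replicate 2 (adjusted p = 0.266; 0.00284 to 0.266 over its alternatives). MAP00_004782 and MAP00_004785 on either side did not pass in the fit of all 6 libraries (log2 fold changes -0.14 ± 0.14 and -0.24 ± 0.11, edgeR adjusted p = 0.554 and 0.187). One gene further, MAP00_004786, chosen after its values were seen, had 41.8, 44.4 and 40.2 CPM in metal-ion libraries, against 55.3, 54.7 and 53.2 CPM in controls, and was called lower in that fit (-0.47 ± 0.10 on the log2 scale; edgeR adjusted p = 0.0148, and 0.000606 to 0.0742 over its alternatives). The model of MAP00_004785 overlaps a short end of MAP00_004784.

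The list for breakdown of branched-chain amino acids held 1 other symbol, BAT2 (MAP00_006474), named for the aminotransferase that opens this pathway and closes their synthesis. BAT2 moved the opposite way to MCCC2, with 406, 336 and 399 CPM in metal-ion libraries, against 243, 248 and 255 CPM in controls. The groups did not overlap, and it rose by 0.50 ± 0.10 on the log2 scale in all 6 libraries (SE; edgeR adjusted p = 0.00989), where 6.66% of tested genes were called higher. That call was lost without control replicate 1 (adjusted p = 0.0739) or 2 (adjusted p = 0.0639), with adjusted p between 1.47e-05 and 0.0739 over its alternatives. Of 11 symbols of secreted and vacuolar peptidases, ASPERGILLOPEPSIN2 was the only one called lower in replicate 2, while 4 were called higher, SED1, PEP2, ALP2 and SED4, where 4.3% of all tested genes were. The call of SED1 held in every alternative, and those of the other 3 were each lost in at least 1, with a highest adjusted p of 0.0894 for PEP2, 0.118 for ALP2 and 0.0878 for SED4. The median log2 fold change of the 11 in replicate 2 was 0.25. The peptidase calls above concern replicate 2 alone. In the fit of all 6 libraries SED1 and SED4 stood at 0.04 ± 0.17 and 0.08 ± 0.15 on the log2 scale (SE; edgeR adjusted p = 0.905 and 0.767). SED1 had 118, 173 and 113 CPM in metal-ion libraries, against 122, 129 and 117 CPM in controls. In that fit 2 of the 11 were called higher, PEP2 and ALP2, each lost in at least 1 alternative. No symbol of the lists for ribosomal proteins, ribosome assembly, translation factors, nucleotide metabolism, siderophores and iron or sugar transport was among the 32. With 0.469% of eligible genes selected, that absence says little. Smaller falls were present. In the fit of all 6 libraries 42 of 49 ribosomal protein symbols, 14 of 35 for ribosome assembly and 8 of 17 translation factors were called lower, where 5.32% of tested genes were. None in these 3 lists was called higher. Their median log2 fold changes in that fit were -0.67, -0.473 and -0.417. In replicate 2 alone the medians were nearer to control, at -0.275, -0.196 and -0.176. These list counts were not repeated with 1 library left out. The lists for zinc and magnesium transport and for amino acid and nitrogen transport matched no symbol.

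ALV1 and MAP00_005124 lay in a longer stretch of lower values. ALV1 had 18.2, 44.9 and 19.7 CPM in metal-ion libraries, against 89.6, 81.3 and 56.2 CPM in controls. The gene between the pair, MAP00_005123, had 29.2, 39.2 and 27.4 CPM in metal-ion libraries, against 69.2, 69.6 and 49.7 CPM in controls. On the other side of ALV1, MAP00_005121 had 31.6, 40.9 and 31.4 CPM, against 81.3, 90.4 and 56.6 CPM in controls. Both of these stood above the limit, at ratios of 0.586 and 0.558, and both fell in the fit of all 6 libraries, at log2 fold changes of -1.08 ± 0.18 and -1.24 ± 0.19 (SE; edgeR adjusted p = 0.00448 and 0.00238). MAP00_005118 and MAP00_005120 fell too, at -0.93 ± 0.19 and -0.83 ± 0.18 (edgeR adjusted p = 0.0143 and 0.0155). Each call was lost when any 1 library other than control replicate 3 and metal-ion replicate 2 was left out. Over their alternatives the adjusted p ran from 0.000156 to 0.0737 for MAP00_005118 and from 0.000182 to 0.0752 for MAP00_005120. MAP00_005119, which overlaps a neighbour, missed the threshold (-0.72 ± 0.21 on the log2 scale; edgeR adjusted p = 0.0518), and was called without metal-ion replicate 2 (adjusted p = 0.000679; 0.000679 to 0.186 over its alternatives).

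No gene next to the stretch was called. MAP00_005125 to MAP00_005127 lay between 1.10 and 5.71 CPM in every library and had log2 fold changes of -0.10 to 0.12 over all 6 libraries. MAP00_005128, with 1.81, 1.90 and 0.51 CPM in metal-ion libraries against 3.06, 3.28 and 3.77 CPM in controls, had a log2 fold change of -1.36 ± 0.42 (edgeR adjusted p = 0.0596; 0.0113 to 0.164 over its alternatives). MAP00_005117, on the other side, was at 1.08 CPM or below in every library. In all 7 genes from MAP00_005118 to MAP00_005124, metal-ion replicate 2 was the highest metal-ion library and control replicate 3 the lowest control. Control replicate 3 stood at 0.642 to 0.768 times the mean of control replicates 1 and 2 in these genes, so the stretch also varied together among the controls. The groups did not overlap in 6 of the 7, the exception being MAP00_005119. All 3 metal-ion libraries lay below every control in 13.0% of the 6823 genes. Replicate 2 was above both other metal-ion libraries in 27.8% of them, and control replicate 3 was the lowest control in 35.9%. The bounds of the stretch were not set in advance, and ALV1 and MAP00_005124 were selected for low values in replicates 1 and 3. In replicate 2 alone, ALV1 missed the threshold (-0.78 ± 0.21 on the log2 scale; edgeR adjusted p = 0.0642). It was called without control replicate 1 (adjusted p = 0.0298) or 3 (adjusted p = 0.000884), with adjusted p between 0.000884 and 0.223 over its alternatives.

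**Figure D4:**
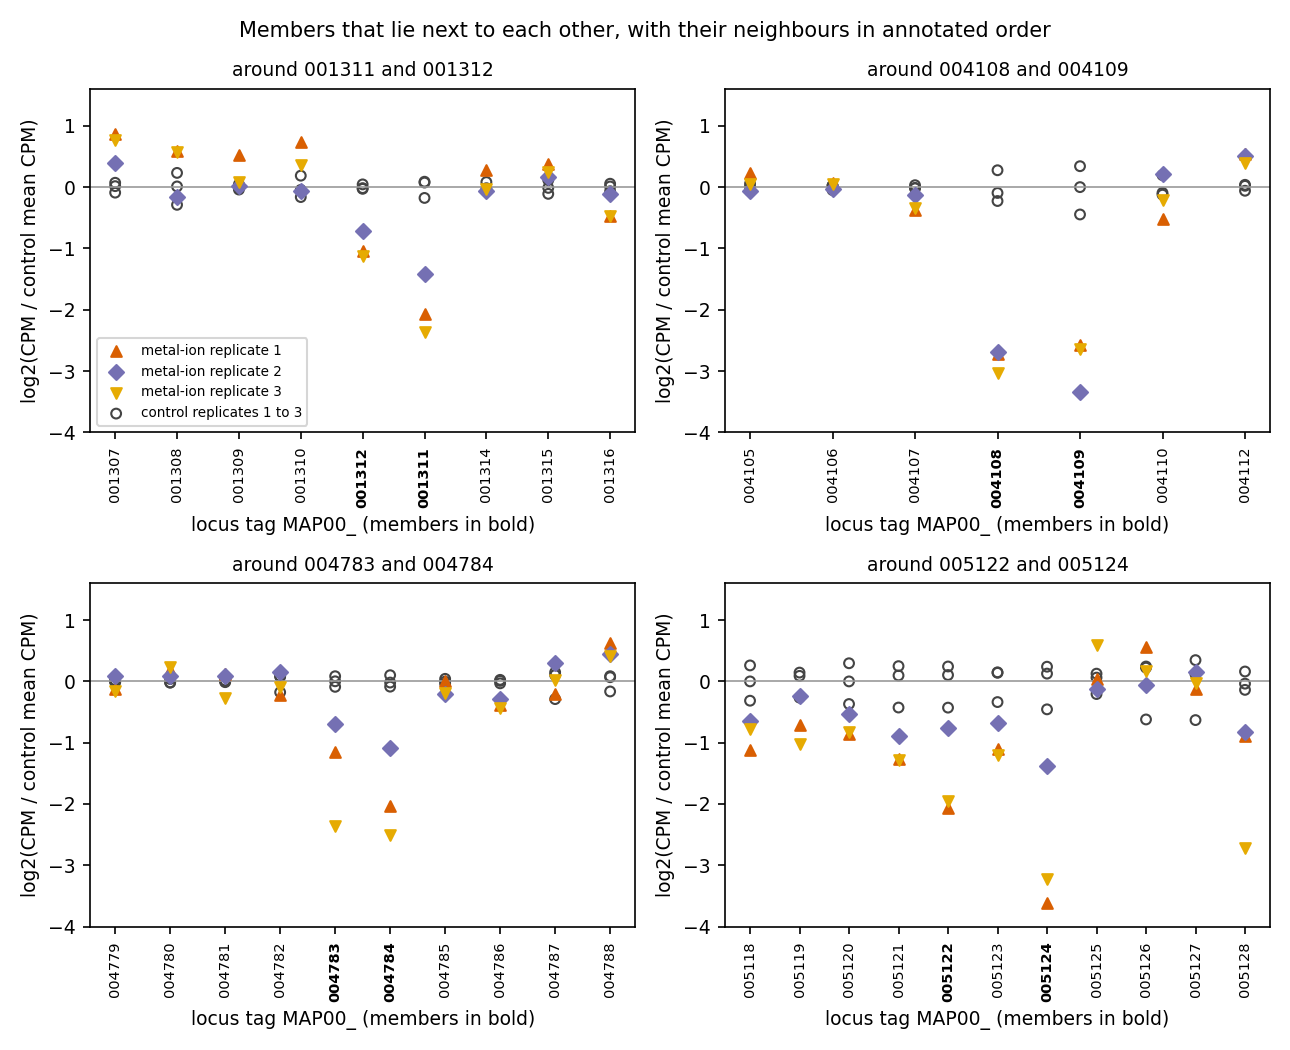
Log2 of CPM over the control mean for the members that lie next to each other or 1 tag apart and for up to 4 genes on either side, in annotated order, leaving out genes with a control mean under 1 CPM; triangles and diamonds are metal-ion libraries, open circles control libraries, and members are in bold. The pairs MAP00_004108 with MAP00_004109 and MCCC2 (MAP00_004783) with MAP00_004784 stand well below the genes directly beside them, while all 3 metal-ion libraries lie below 0 from MAP00_005118 to MAP00_005124.

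At the limit of the selection, the 3 genes just inside were MAP00_001312, MAP00_008561 and MAP00_001351, at ratios of 0.497, 0.491 and 0.491. The 3 just outside were RMT1 (MAP00_005780), named for an arginine methyltransferase, at 0.517, MAP00_008513 at 0.522 and MAP00_006514 at 0.524. Replicate 2 stood at 0.804, 0.918 and 0.783 times the lowest control in these 3. Of the 32 genes, 5 have models that overlap a neighbour (15.6%, against 10.99% of the 6823), namely MAP00_000453, MAP00_001311, MAP00_001312, MAP00_004784 and MAP00_006770.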

How the data were processed

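Counts and FPKM per gene were deposited by the authors for 3 metal-ion and 3 control libraries. Per the labels' protocols, mRNA libraries were made with a NEBNext Ultra kit and sequenced on an Illumina HiSeq. TopHat2 is among the tools in the submitters' processing notes. For the counting tool, build and annotation, nothing is given in the sources used here. The kit does not mark strand. The deposited FPKM values were used only for levels per length and 1 alternative. CPM was computed from the deposited counts and column totals. Fits used edgeR 4.0.16 in R 4.3.3 (quasi-likelihood, TMM, default low-count filter, two-sided, Benjamini-Hochberg, called at 0.05). The fits were also run on simulated data, with an outcome not given here, and DESeq2 1.42.0 was an alternative. That simulation gave metal-ion replicate 2 no larger spread than the other libraries, unlike the data. The SE given with edgeR is the absolute log2 fold change divided by the square root of the F value of its test. All 9151 locus tags matched the annotation used for symbols, order and overlap.

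The members and lists were chosen with earlier results of these data known. Named genes were the 8 lowest and 6 highest in replicate 2, those with a symbol, the 5 most abundant by FPKM and those at the limit. Genes low in all 3 metal-ion libraries and genes beside paired members were described as well. Promoters were not analysed here. A list of secondary metabolism symbols is not reported here.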

Additional observations from a re-analysis of the deposited data

How the results depend on the processing

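The number of genes selected was 17 at a ratio of 0.4 and 82 at 0.6, and 10 and 9 when metal-ion replicate 1 or 3 was left out of the ratio in place of replicate 2. Other scalings, FPKM and other minimum levels gave 29 to 46 genes, and leaving out a control gave 32 to 39. Of the 32 genes, replicate 2 was at or below 0.4 times the lowest control in 6 and at or below 0.6 times in 17, in place of 9 at 0.5, and without 1 control it was at or below 0.5 in 9 to 12. Replicate 2 was below the lowest control in 31 of the 32 with TMM, with median-ratio size factors and without each control. In replicate 2 against control, 23 to 29 of the 32 were called over 7 alternatives (26 to 29 without 1 control), 21 of them in every fit, and the 9 whose call or sign changed include MAP00_000453, whose log2 fold change turned to 0.016 on library totals and lay between -0.034 and 0.034 (without control replicate 2) when 1 control was left out. In the fit of all 6 libraries the count was 19 to 32 without 1 library, lowest without control replicate 2 (19), control replicate 1 (20) and metal-ion replicate 3 (20). Over all genes that fit called 481 lower and 603 higher, against 344 lower and 860 higher on library totals, and 348 to 2829 genes were called in all when 1 library was left out (2829 without metal-ion replicate 2).

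Adding the replicate number as a block to that fit gave 32 calls among the members in place of 31. Over all tested genes the block gave 1365 calls in place of 1084. Deviations of same-numbered libraries from their group means correlated at 0.05, 0.27 and 0.17. Control replicates 2 and 3 correlated best with the metal-ion library of the same number, and control replicate 1 with metal-ion replicate 3 (0.10). Whether the numbers pair the libraries is not settled by these values. The gene with the lowest control mean, MAP00_001351, had 87 to 254 counts a library and was not called in replicate 2, and whether depth plays a part in that was not tested.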
